A study of Mus musculus with 10 samples.

Results

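The subject is the set of wide regions of IKZF2 CUT&RUN signal that lay far from the ends of protein-coding genes. A member was a region of over 300 bp, more than 5 kb from both ends of every protein-coding RefSeq gene span, on chromosomes 1 to 19, with the stretch of chromosome 4 from 3 to 60 Mb left out. Members numbered 1060 of 151133 regions, of which 518 lay inside a gene span (intragenic) and 542 outside every span (intergenic). They were selected on their width, which comes from peak calls on these same reads, so their signal level against other regions is given as a description. The only test of it is against regions at gene ends that met the same width limit. That test spans 3 libraries, too few to decide. Exons and introns could not be told apart with the annotation used here.

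The 6 samples came from RN2 cells, a cultured line of murine leukaemia carrying MLL-AF9 and NRASG12D on the C57BL/6 background, which had received a retrovirus encoding murine IKZF2 and RFP and had been sorted and grown for 2 weeks. Every sample thus overexpressed the factor, and all were incubated with an anti-IKZF2 antibody. They form 3 libraries of 2 technical replicates each, which were summed. A further 4 samples with a control antibody were not analysed here, so each value below is set only against other regions of the same libraries. CUT&RUN uses an antibody to bring a nuclease to its target on chromatin, and the freed DNA is sequenced.

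IKZF2 (Helios) is a zinc-finger protein of the Ikaros family, whose members recruit chromatin-remodelling complexes and share DNA-binding fingers that recognise a GGGAA core. In blood cells these factors act at promoters and also at distal enhancers, short stretches of open chromatin that can lie inside introns or far outside the gene they control. Distal sites of a transcription factor also include starts of non-coding RNA genes, which a measure of distance to protein-coding genes does not see.

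Some members lay on annotated transcription starts that are internal to a gene span or belong to non-coding genes. The sequences below are the 250 bases before the start, 5′ to 3′ on the gene's strand, from RefSeq promoter windows of GRCm38.p6 (the coordinates of mm10), and they are shown because each of these windows overlapped a member that the results turn on. Capitals mark GGGAA or its reverse complement TTCCC, extended by a letter where TGGGAA or TTCCCA was present. They lie upstream of the lncRNA Gm31619 (chr2:167589484-167589733, minus strand), the lncRNA Gm33560 (chr7:141122981-141123230, plus strand), Mesd (chr7:83892016-83892265, plus strand), Abhd18 (chr3:40894009-40894258, plus strand), a start inside the Rbpj span (chr5:53590236-53590485, plus strand) and the lncRNA Gm35889 (chr7:35156837-35157086, minus strand).
Gm31619: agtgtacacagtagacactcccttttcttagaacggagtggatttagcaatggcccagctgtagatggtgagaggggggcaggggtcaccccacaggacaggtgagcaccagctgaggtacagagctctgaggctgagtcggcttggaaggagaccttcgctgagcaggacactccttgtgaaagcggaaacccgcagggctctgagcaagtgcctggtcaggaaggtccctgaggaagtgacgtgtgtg
Gm33560: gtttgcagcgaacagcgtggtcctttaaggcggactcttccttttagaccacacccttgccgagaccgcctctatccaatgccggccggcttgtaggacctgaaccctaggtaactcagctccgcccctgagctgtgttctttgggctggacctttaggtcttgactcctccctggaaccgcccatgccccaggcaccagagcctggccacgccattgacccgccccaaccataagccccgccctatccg
Mesd: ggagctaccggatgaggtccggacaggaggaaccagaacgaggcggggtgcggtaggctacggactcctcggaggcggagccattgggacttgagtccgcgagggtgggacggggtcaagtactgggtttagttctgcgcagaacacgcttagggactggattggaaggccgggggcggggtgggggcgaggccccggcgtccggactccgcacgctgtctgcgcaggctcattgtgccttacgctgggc
Abhd18: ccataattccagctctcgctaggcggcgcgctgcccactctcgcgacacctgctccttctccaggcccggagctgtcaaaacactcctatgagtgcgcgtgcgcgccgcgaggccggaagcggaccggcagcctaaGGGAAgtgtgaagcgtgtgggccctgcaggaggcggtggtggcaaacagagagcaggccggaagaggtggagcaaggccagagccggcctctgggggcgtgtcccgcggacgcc
Rbpj: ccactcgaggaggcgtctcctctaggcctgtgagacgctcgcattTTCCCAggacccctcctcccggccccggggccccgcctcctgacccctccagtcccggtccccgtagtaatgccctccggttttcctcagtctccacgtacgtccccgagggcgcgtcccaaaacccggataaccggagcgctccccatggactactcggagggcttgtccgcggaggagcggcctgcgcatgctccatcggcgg
Gm35889: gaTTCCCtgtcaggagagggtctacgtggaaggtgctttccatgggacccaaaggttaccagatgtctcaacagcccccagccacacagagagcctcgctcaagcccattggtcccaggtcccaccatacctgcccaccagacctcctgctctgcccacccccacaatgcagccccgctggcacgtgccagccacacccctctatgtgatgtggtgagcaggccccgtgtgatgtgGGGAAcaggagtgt

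The Rbpj window, upstream of a start of the Notch-pathway DNA-binding factor, held 1 match to TGGGAA, on the reverse strand at the edge of the member and not wholly inside it. A second Rbpj window, which the member overlapped by 110 bp, held 3 matches to GGGAA, none of them wholly inside the member. The Gm35889 window held 2 matches to GGGAA, 1 of them inside the member, and the Abhd18 window 1, inside the member, while the windows of Gm31619, Gm33560 and Mesd held none. A search on both strands found TGGGAA, which contains GGGAA, in 9 of the 51 windows under members (17.6%), against 21.6% of all 32851 windows. GGGAA was in 64.7% of windows under members and in 56.2% of all windows, and of the 44 matches in windows under members 26 lay inside the member. Windows under members were richer in G and C, with a median of 61.2% against 52.4% in all windows, and held a median of 15 CpG dinucleotides against 6. Several of these windows belong to the same gene and overlap, and a match to letters says nothing of whether the factor bound there.

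Members carried 1.83% ± 0.102 of the reads in regions (SD, n = 3 libraries), over 1.95% of the covered bases, and were 0.701% of all regions. Their median width was 336 bp and the widest measured 1366 bp. Depth was 1675237, 1570251 and 2081455 reads in regions in libraries 1 to 3, and the median member held 26, 25 and 32 reads. No label states that libraries 1 to 3 were made from different cultures, so their SD may be of technical origin, and the intervals given cover counting error only.

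Several of the highest members lay at genes of small nuclear RNAs (snRNAs), the RNA components of the spliceosome, which removes introns. Of the 1060 members 8 lay within 500 bp of an annotated snRNA gene (0.755%; 95% Wilson interval 0.383 to 1.48%), against 61 of 112346 narrower regions that met the same distance and chromosome rule (0.0543%; interval 0.0423 to 0.0697%). The share was 13.9 times as high, where the greater width of members alone would give 1.21 times at uniform placement. These 8 had a median of 124.8 CPM per kb (reads scaled by the sum over all regions of that library, then divided by width in kilobases), against 42.8 for all members and 53.0 for the 61 narrower regions. This class was singled out after its values were seen. snRNA genes have near-identical copies, and how reads with several matches were placed is not given in the sources used here.

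The widest of all regions, chr11:101658281-101659647, began inside Rnu2-10, a gene of the U2 snRNA, and ran to 1366 bp. It held 358, 372 and 360 reads in libraries 1 to 3, or 156.4, 173.4 and 126.6 CPM per kb (152.2 ± 23.7, SD, n = 3). Its nearest protein-coding gene end, that of the small GTPase gene Arl4d, lay 5894 bp away. With 1090 reads in all it was also the member with the most reads.

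A run of 3 members on chromosome 9, between Igdcc3 and Parp16, lay beside the U5 snRNA gene Rnu5g and a second snRNA gene, Gm25313. The member at chr9:65195841-65196387, 185 bp from Gm25313, stood at 100.6, 156.3 and 127.6 CPM per kb in libraries 1 to 3. The member at chr9:65200187-65200544, 1182 bp from Rnu5g, stood at 150.5, 160.5 and 115.7 CPM per kb. The member at chr9:65201134-65201481, 245 bp from Rnu5g, stood at 120.4, 97.3 and 146.8 CPM per kb. No library was lowest at all of them, and this was the only group of 3 members among the 17 groups whose members followed each other within 12.5 kb.

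Further members beside snRNA genes were spread over chromosomes 1, 2 and 11. Inside Hhat, the gene of the enzyme that palmitoylates Hedgehog proteins, the member chr1:192745804-192746388 lay 118 bp from Gm22265 and stood at 120.6, 131.9 and 145.6 CPM per kb (132.7 ± 12.5). Near Mreg, the melanoregulin gene, chr1:72226337-72226894 overlapped Gm25360 and stood at 116.8, 144.1 and 124.2 CPM per kb (128.4 ± 14.1). Their coefficients of variation over the libraries, 0.094 and 0.11, lay below the lower quartile of all members (0.193), while those of the members at Gm25313 (0.217) and Rnu5g (0.204) lay above it. In that order they held 416, 379, 371 and 229 reads, against a median of 79 over members, so these values and the quartile are not at like depth. The lower members beside snRNA genes were those at Gm23137 inside Tex14 (83.6 ± 21.1), at Gm26316 near Gm11634 (71.5 ± 3.84) and at Gm25703 near Il1a (40.9 ± 15.8 CPM per kb).

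**Figure D1:**
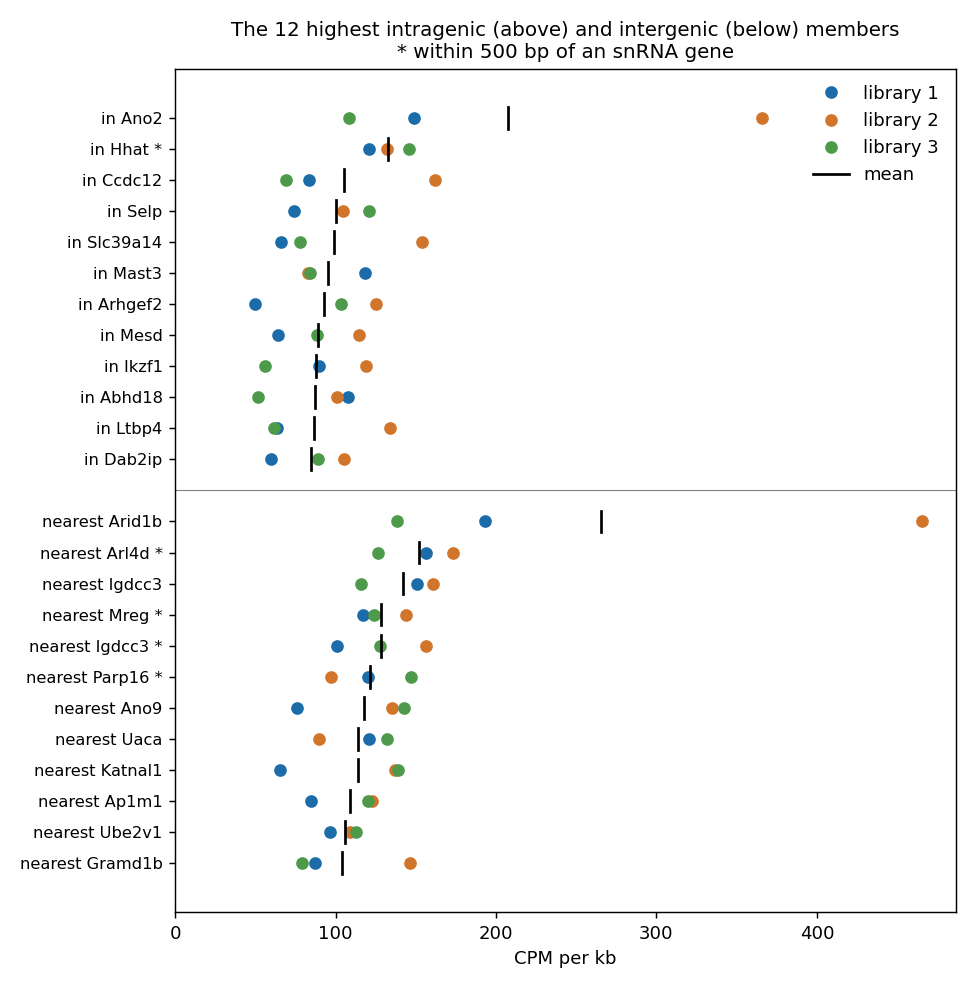
Signal in CPM per kb (x axis) of the 12 intragenic members (above) and the 12 intergenic members (below) with the highest mean; points are the 3 libraries, the black bar is their mean and an asterisk marks members within 500 bp of an snRNA gene. The Arid1b-nearest and Ano2 members are highest in library 2, at 465.6 and 365.8 CPM per kb. The Hhat and Mreg members, beside snRNA genes, run from 120.6 to 145.6 and from 116.8 to 144.1.

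Genes of transfer RNAs, which carry amino acids to the ribosome, were also nearer to members than to narrower regions. There were 5 members within 500 bp of a tRNA gene (0.472%; interval 0.202 to 1.10%), against 62 narrower regions (0.0552%; interval 0.0431 to 0.0707%). All 5 overlapped their tRNA gene, 4 of them on chromosome 13, and none lay inside a protein-coding gene span. They were of moderate level, from 40.6 CPM per kb at n-TGgcc6 to 66.3 at n-TAagc13. Their median was 51.4 CPM per kb, against 59.2 for the 62 narrower regions. Members at snRNA genes had a median of 124.8 but ran down to 40.9. Genes of small nucleolar RNAs, which guide RNA modification, lay near 0 members, which allows up to 0.361% by the Wilson interval, and near 0.0561% of narrower regions, so no difference was detectable at this number. For microRNA genes the shares were 0.189% (2 members; interval 0.0518 to 0.685%) and 0.0392%, and the intervals overlapped. For pseudogenes they were 0.755% (interval 0.383 to 1.48%) and 1.23%.

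Long non-coding RNA genes lay within 500 bp of 161 members (15.2%; interval 13.2 to 17.5%), against 11.3% of narrower far regions. Among intragenic members the count was 35 of 518 (6.76%; interval 4.90 to 9.25%), against 5.38% of narrower intragenic far regions (interval 5.18 to 5.58%), so the intervals overlapped. Among intergenic members it was 126 of 542 (23.2%; interval 19.9 to 27.0%), against 16.1% of narrower intergenic ones (interval 15.8 to 16.4%).

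**Figure D2:**
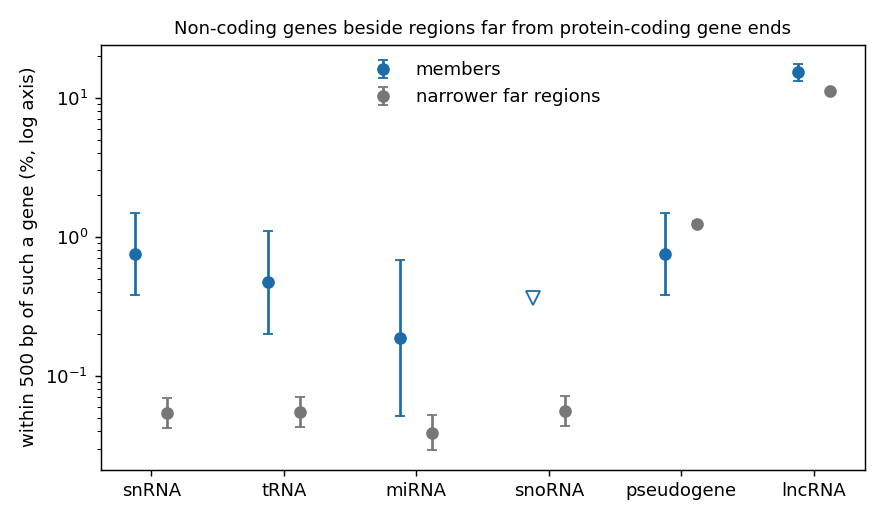
Percentage (log axis) of the 1060 members and of the 112346 narrower far regions within 500 bp of genes of 6 non-coding classes, with 95% Wilson intervals; the open triangle is the upper limit for a count of 0. Members stand above narrower regions with separate intervals for snRNA, tRNA and lncRNA genes, at 0.755% against 0.0543% for snRNA genes.

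Annotated starts of transcription were likewise more frequent under members. A RefSeq promoter window, from 250 bases before to 50 after a start, overlapped 39 of 1028 members (3.79%; 95% Wilson interval 2.79 to 5.14%), against 0.598% of 108349 narrower far regions (interval 0.554 to 0.646%). For this count chromosome 18 was not analysed here. The share was 6.34 times as high, where greater width alone would give 1.55 times at uniform placement. It differed by width already among the narrower regions, with 0.449% at 120 bp or less and 1.61% in the widest class up to 300 bp, and was 2.98% in members of up to 400 bp and 7.41% above 400 bp. Intragenic members of over 400 bp had the highest share of any class, 10 of 87 (11.5%; interval 6.36 to 19.9%).

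**Figure D3:**
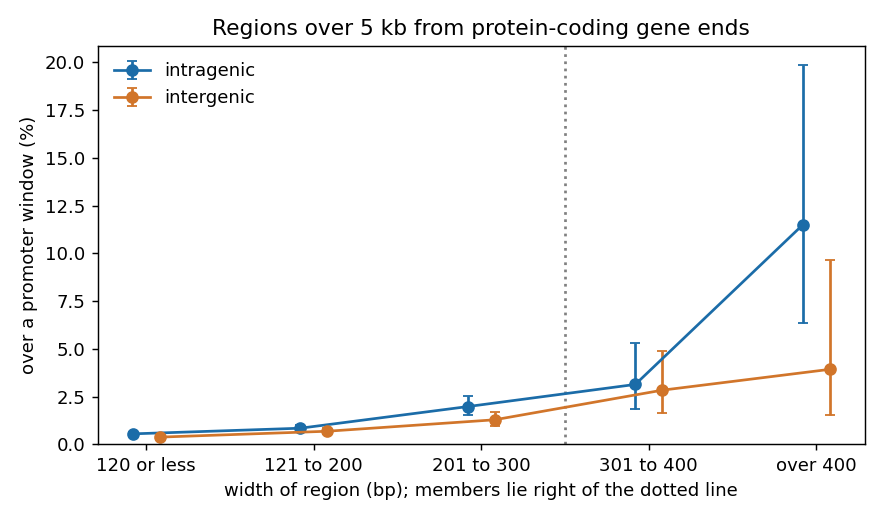
Percentage of regions over 5 kb from protein-coding gene ends that overlap a promoter window (y axis), by width class in bp (x axis), for intragenic and intergenic regions with 95% Wilson intervals. The share is higher in each wider class in both, and reaches 11.5% in intragenic and 3.92% in intergenic regions of over 400 bp.

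Inside gene spans these were mainly starts of protein-coding genes: of the 23 intragenic members over a window, 16 lay over protein-coding starts, 4 over lncRNA starts and 3 over both. In 19 of the 39 cases the start belonged to the gene whose span held the member, that is a start downstream of the outermost one. The 16 intergenic members over a window all lay over lncRNA starts. Both follow from the distance rule, under which a member can overlap a protein-coding start only inside the span of that gene. Mesd encodes a chaperone of LDL-receptor family proteins, and the member over its window (chr7:83891777-83892250) stood at 64.4, 114.4 and 88.4 CPM per kb in libraries 1 to 3. The member over the Abhd18 start and the divergent lncRNA 6430590A07Rik stood at 108, 101.1 and 51.9 CPM per kb. Also over an internal start was a member in Hdac4, a class IIa histone deacetylase gene, at 117, 36.9 and 34.0 CPM per kb. It was highest in library 1, on 61, 18 and 22 reads, and the test between libraries given below did not call it. The Rbpj member, likewise over an internal start, stood at 51.2, 54.6 and 90.4 CPM per kb. Except for Mesd and Abhd18 and the gene lists below, the genes named for their starts were chosen after values were seen.

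Among intergenic members, the highest over an lncRNA start lay upstream of Gm33560, near the ion-channel family gene Ano9. It stood at 76.0, 135.1 and 142.7 CPM per kb (117.9 ± 36.5), lowest in library 1. The one over the Gm31619 start, nearest to the ubiquitin-conjugating variant gene Ube2v1, stood at 96.8, 109 and 112.5 CPM per kb (106.1 ± 8.26). That member lay 99.4 kb upstream of the start of Cebpb, which encodes a C/EBP transcription factor of myeloid cells, and members nearest to Cebpb also lay at 21.9 and 65.3 kb downstream of it. At 65.3 kb the levels were 64.8, 79.8 and 71.2 CPM per kb, with little spread, whereas at 21.9 kb they were 13.8, 59.0 and 63.6.

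Positions close to known enhancers of blood genes were found among the widest members. These were looked up after values were seen. The fifth widest intergenic member, chr7:35156337-35156980 (643 bp), lay 37.4 kb downstream of the start of Cebpa, the C/EBP factor needed for granulocyte-monocyte progenitors, at the place of an enhancer described in mouse myeloid cells. It also overlapped the Gm35889 window printed above. Its level was 52.0, 35.7 and 35.9 CPM per kb (41.2 ± 9.37), near the median of members, with 56, 36 and 48 reads. The third widest, chr6:88116584-88117297 (713 bp), lay 77 kb upstream of a start of Gata2, a factor of haematopoietic stem cells, and also near a known enhancer. It stood at 32.7, 50.9 and 66.0 CPM per kb (49.9 ± 16.7). Width, not level per kilobase, set both apart from other members.

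At Runx1, which encodes a factor required for blood stem cell emergence, 2 members followed each other 25.2 and 24.3 kb downstream of the distal start, where an intronic blood enhancer is known in mouse. The first (chr16:92800654-92801100) stood at 57.6, 72.8 and 51.7 CPM per kb and the second (chr16:92801625-92801952) at 60.2, 66.2 and 45.5. Both were highest in library 2 and lowest in library 3. Ikzf1, which encodes Ikaros, the founding member of the family of the profiled factor, held a member at chr11:11730222-11730549, 44.5 kb downstream of its first start. It stood at 89.5, 118.8 and 55.8 CPM per kb (88.0 ± 31.5).

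Genes of the 4 lists used here were compared by counts of genes that held a member or were nearest to an intergenic one. For blood transcription factors these were 11 of 47 genes (23.4%), for blood signalling and surface proteins 12 of 34 (35.3%), for chromatin regulators and corepressors 4 of 35 (11.4%) and for long genes of non-blood tissues 7 of 40 (17.5%). Among all protein-coding genes they were 952 of 20306 (4.69%). Gene length differs between these sets: the median span was 57.3, 64.5, 78.0 and 1142 kb in the 4 lists and 17.4 kb in all genes. Counting only members inside the span, the shares were 14.9% (7 of 47), 14.7% (5 of 34), 11.4% (4 of 35) and 12.5% (5 of 40) in the order above, against 2.33% of all genes, and so lay close together. The median level at members of the long non-blood genes was 39.2 CPM per kb (n = 8). It was 52.7 in the blood transcription factor list (n = 16), 52.3 in the blood signalling list (n = 15) and highest, 62.6, in the chromatin list (n = 7). No test was made of these counts, since the lists were chosen with results of these data known.

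The 3 highest members of the blood transcription factor list were those at Ikzf1, at Cebpb (71.9 ± 7.51) and at Mef2c (chr13:83571963-83572449; 45.4, 82.6 and 63.3 CPM per kb). Mef2c encodes a MADS-box factor active in myeloid leukaemia, and its second member (chr13:83524569-83524905) stood at 56.9, 56.9 and 51.5 CPM per kb. Both lay close to internal starts of the gene, the first at 1.4 kb from one and the second at 1.1 kb from another. Meis1, which encodes a cofactor of HOXA9, held a member of 50.9, 57.7 and 48.7 CPM per kb (chr11:18969991-18970366). In the signalling list the highest was near the chemokine receptor gene Cxcr4 (chr1:128570081-128570576; 97.7, 69.5 and 50.5 CPM per kb), followed by both members in Ptk2b, a focal-adhesion family kinase gene, at 61.9 ± 16.7 and 61.5 ± 1.99. In the chromatin list the member nearest to Arid1b was highest, followed by one nearest to Hdac4 (79.6 ± 36.8) and one in Kmt2d, a histone H3K4 methyltransferase gene (65.9 ± 9.19). In the list of long non-blood genes the highest were in Ptprt (54.9 ± 16.4), Sox5 (43.1 ± 12.2) and Pde4d (41.9 ± 14.1), all between the lowest and the highest member of the blood transcription factor list (31.5 and 88.0).

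In all 474 genes held a member, 41 held at least 2 and 4 held 3. These 4 were Arhgap26, Gse1, which encodes a subunit of a corepressor complex, Iqsec1, an ARF exchange factor gene, and Prkag2, which encodes a regulatory subunit of the AMP-activated kinase. Their members ranged from 33.6 ± 2.12 CPM per kb in Arhgap26 to 79.1 ± 14.0 in Prkag2. Cdk6, the cell-cycle kinase gene, had 2 members inside its span (64.5 ± 28.9 and 43.9 ± 14.6 CPM per kb) and 1 nearest to it, and Hdac4, Itpr1, Mef2c, Msrb3 and Rreb1 had the same numbers.

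Of the other members named by level, the 2 with the highest mean had their highest value in library 2. In Ano2, which encodes a calcium-activated chloride channel, chr6:125876912-125877241 held 82, 189 and 74 reads, or 148.8, 365.8 and 108.1 CPM per kb (207.6 ± 138.6). The member nearest to Arid1b, a gene of a BAF chromatin-remodelling subunit, lay 367702 bp from it at chr17:4626171-4626595. It held 137, 310 and 122 reads, or 192.9, 465.6 and 138.2 CPM per kb (265.6 ± 175.4). Its value in library 1 was also the highest of any member in that library. In both, library 2 stood above both other libraries, and technical replicate 1 gave a large part of the reads, 33.0% at Ano2 and 52.4% near Arid1b, against a median of 15.8% over members. The remaining high intragenic members lay in Ccdc12 (105.1 ± 50.02), Selp, the P-selectin gene (99.97 ± 23.7), the metal transporter gene Slc39a14 (99.1 ± 47.8), the kinase gene Mast3 (95.0 ± 20.2), Arhgef2 (92.8 ± 39.0), Ltbp4 (86.4 ± 41.2) and the Ras GTPase-activating gene Dab2ip (84.8 ± 23.0). High intergenic ones were nearest to Uaca (114.1 ± 22.2), Katnal1 (113.7 ± 42.1), the clathrin adaptor gene Ap1m1 (109.1 ± 21.4) and Gramd1b (104.2 ± 36.7). Smox, the spermine oxidase gene, held the widest intragenic member (661 bp), with 190 reads and only 52.6 ± 15.5 CPM per kb.

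Intragenic and intergenic members had nearly the same level. The median was 43.0, 45.7 and 43.2 CPM per kb over intragenic members in libraries 1 to 3, and 43.8, 46.5 and 43.3 over intergenic ones. The difference, intragenic minus intergenic, was -0.71, -0.80 and -0.11 CPM per kb (mean -0.54 ± 0.373, SD, n = 3; exact sign-flip permutation test, two-sided, p = 0.25, the smallest that 3 libraries allow). Members stood below equally wide regions within 1 kb of a gene end, of which there were 560. Their medians were 43.4, 46.0 and 43.3 CPM per kb in members and 59.8, 71.2 and 59.4 at gene ends (mean difference -19.2 ± 5.17; same exact sign-flip permutation test, p = 0.25). The difference had the same sign in all 3 libraries.

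**Figure D4:**
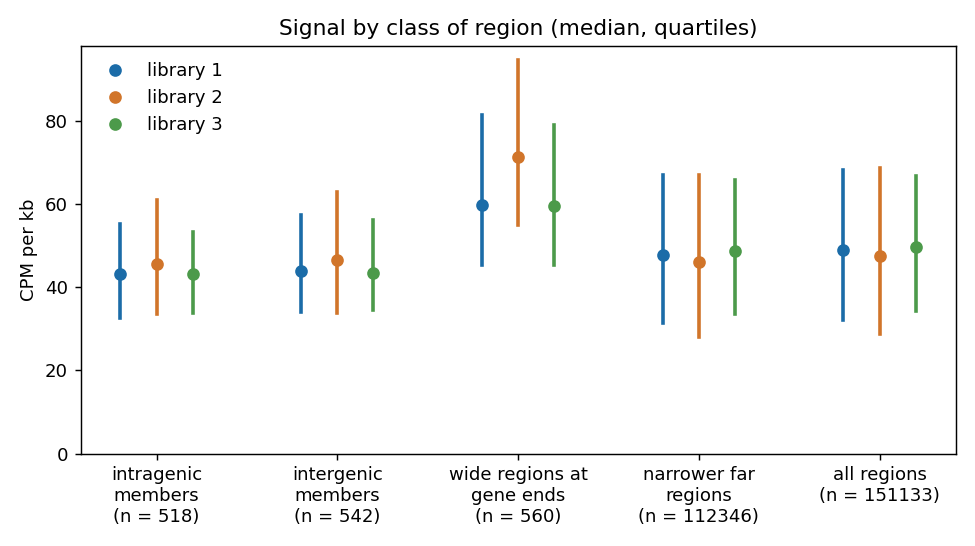
Signal in CPM per kb (y axis) in each library by class of region; points are medians over regions and lines run between the quartiles. Intragenic and intergenic members lie together, at 43.0 to 46.5 CPM per kb, and below wide regions at gene ends, at 59.4 to 71.2.

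Few members were strong in every library. Ranked by CPM per kb, 0.644% of all regions reached the top 10% throughout libraries 1 to 3, and 9 members did (0.849%), a share near that background. In no library did 964 members reach it (90.9%), against 72.9% of all regions and 74.4% of narrower far regions. At gene ends 57 wide regions reached it in every library (10.2%) and 63.4% in none. Of the 9 members, 5 lay within 500 bp of an snRNA gene and another was the one 1182 bp from Rnu5g; the others were those in Ano2 and nearest to Arid1b and Ube2v1. Without the 8 members beside snRNA genes, 4 of 1052 remained (0.380%). Since the top rank counts level per kilobase, it depends on width. By reads per region, with no division by width, 45.6% of members were in the top 10% in every library. Members were selected on width, with a median of 336 bp against 109 bp over all regions. No share over all regions was computed for the ranking per region, so the 45.6% has no background beside it.

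Levels of members correlated weakly between libraries. Pearson's r of log2(CPM per kb + 1) over the 1060 members was 0.16 for libraries 1 and 2, 0.09 for 1 and 3 and 0.18 for 2 and 3. Over the 560 wide regions at gene ends it was 0.54, 0.49 and 0.52, and over narrower far regions -0.22, -0.28 and -0.26. Regions share library, depth and base composition, and they come from peak calls on these same reads, so these values and their signs describe the tables only. Of the members, 642 (60.6%) kept within 2-fold over the 3 libraries, against 419 (74.8%) of wide regions at gene ends. These sets differ in depth. The median of reads over the 3 libraries was 79 in members, 124.5 in wide regions at gene ends and 30 in narrower far regions. Whether depth sets the differences in r and in the 2-fold share was not tested. Library 2 was the highest of the 3 at 421 members, library 1 at 322 and library 3 at 317.

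A test across regions for differences between libraries called 0.0146% of the 27452 regions tested (edgeR quasi-likelihood test, Benjamini-Hochberg adjusted p under 0.05). Among 1031 members tested it called 1, the member nearest to Arid1b, whose log2 difference was 1.17 for library 2 minus library 1 and -0.23 for library 3 minus library 1 (adjusted p = 2.21e-04). Each library is a single preparation, so the yardstick of this test is the spread of technical replicates, and it says nothing of conditions or cultures. No member was called when library 2 or library 3 was left out, or without the technical replicate term. The Ano2 member did not pass (adjusted p = 0.164). At an unadjusted p under 0.05 there were 42 members (4.07%), about the share of all regions tested (4.35%).

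Technical replicates of a library differed in depth, with medians of 21, 22 and 27 reads per member in technical replicate 2, against 4 in each sample of technical replicate 1. With the library as a block, the same test called 0.138% of regions tested as higher and 0.12% as lower in technical replicate 2. Of the members tested, 2 were higher. The member at Rnu2-10 had a log2 difference, technical replicate 2 minus 1, of 0.92 ± 0.20 (SE; edgeR adjusted p = 3.35e-03), and the one at Gm25313 of 1.75 ± 0.36 (edgeR adjusted p = 1.09e-03). The member nearest to Arid1b was lower, at -1.74 ± 0.22 (edgeR adjusted p = 1.14e-11). Its technical replicate 2 samples held 71, 142 and 58 reads, against 66, 168 and 64 in the shallower technical replicate 1, which made it the only member with over 50% of its reads there. With plain totals in place of TMM, edgeR's scaling of totals, 1 member was called, as lower, and so it was with no library block. Over members the median log2 difference was 0.78, against 0.41 over all regions tested, and with plain totals 0.41 against 0.05. The scaling thus moved both medians by a similar amount. The filter on low counts kept 1031 of 1060 members but only 16217 of 112346 narrower far regions. Its cutoff is scaled to depth, so fewer reads suffice in the shallower technical replicate 1. The regions tested are thus selected on the counts compared, and whether members differ from other regions here was not tested. The calls fell to 1, 0 and 0 without library 1, 2 or 3.

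**Figure D5:**
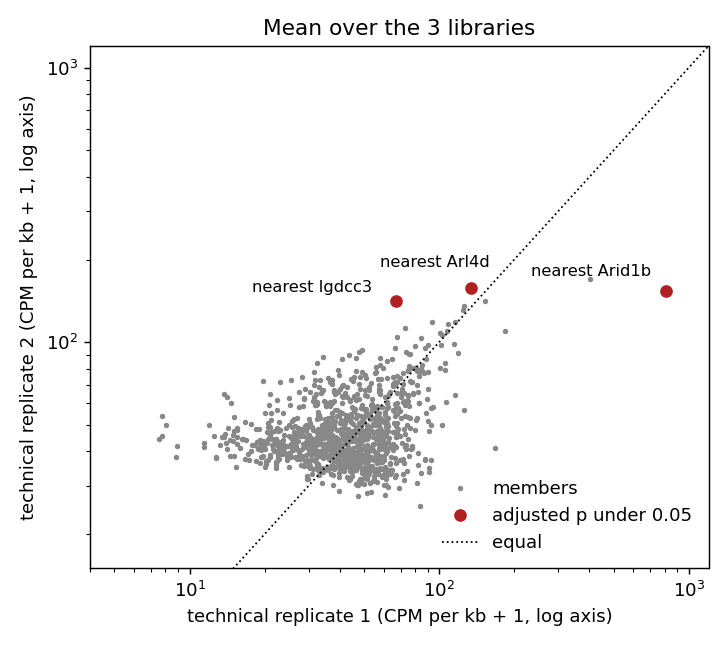
Mean CPM per kb + 1 over the 3 libraries in technical replicate 2 (y axis) against technical replicate 1 (x axis) for each member, both on log axes, with the line of equal values. The 3 members with an edgeR adjusted p under 0.05 are marked, and the one nearest to Arid1b lies far to the right of the line.

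Members lay nearer to genes than narrower regions that met the same distance rule. Their median distance to the nearest protein-coding gene end was 25296.5 bp, against 40403 bp. For intragenic ones it was 25070.5 bp against 29631 bp, and for intergenic ones 25546.5 bp against 56676 bp. Members over 100 kb from a gene end numbered 150 (14.2%; 95% Wilson interval 12.2 to 16.4%), against 27.8% of narrower far regions. The intragenic share was 48.9% of members (interval 45.9 to 51.9%) and 45.1% of narrower far regions. Members made up 0.761% of far regions on chromosome 1 and 1.40% on chromosome 19, the lowest and the highest share of the autosomes.

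The 20 far regions just inside the width limit, 1 bp over it, had a median of 43.0 CPM per kb and the 19 of 300 bp, just outside it, 42.2. Just inside the distance limit lay the member in Tbxas1, the thromboxane synthase gene, at 5002 bp (51.9 ± 13.4 CPM per kb), one nearest to Actg1 (52.3 ± 16.9) and one nearest to Psen2 (55.1 ± 6.76). Just outside it lay regions in Nktr at 4996 bp (53.0 ± 35.5), in Atp2c1 (36.0 ± 10.2) and in Sh2d3c (79.5 ± 22.5).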

How the data were processed

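The deposited tables, 1 per sample, hold raw read counts for a common set of regions, with no normalization by the authors, per the file headers and values. The submitters' processing notes name mm10, Bowtie2 2.3.3.1 and MACS2. The sources used here give no peak threshold, no role for each tool and no list of samples behind the calls. Region starts are printed as deposited, since no source says whether they count from 0 or 1. Even numbers made up 58.0 to 61.2% (technical replicate 2) and 84.7 to 87.4% (technical replicate 1) of counts of at least 10, so single reads were not independent. The Wilson intervals here are on numbers of regions and take no account of this.

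Technical replicates were summed, scaled by the sum of each library over all regions (CPM) and divided by width. Genes, non-coding genes and promoter windows came from RefSeq tables of GRCm38.p6. Tests used edgeR 4.0.16 (R 4.3.3; filterByExpr, TMM, glmQLFit, glmQLFTest), with DESeq2 1.42.0 as an alternative, and were tried on simulated counts. The library block follows the labels, which tie both technical replicates to the same CUT&RUN. Other steps used Python 3.11.15, pandas 2.3.3 and scipy 1.17.1. No genome was used here, so sequence under regions was replaced by promoter windows. Members, lists and tests were chosen with earlier results of these data known. Genes were named at the 12 highest members of each class, the 5 with the most reads, members called by a test, the 3 highest of each list, the 5 genes with the most members, and members at the limits.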

Additional observations from a re-analysis of the deposited data

How the results depend on the processing

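The mean of both paired differences kept its sign under all 10 alternatives run: members minus wide regions at gene ends ran from -21.1 to -8.03, and intragenic minus intergenic from -1.20 to -0.18 CPM per kb (per region where not divided by width). The first was below 0 in every library, but the second in only 2 of 3 libraries per region, for members of over 400 bp, for those over 10 kb from a gene end and without the 1% of highest members. The median member level of 42.8 CPM per kb became 45.2 for members of over 400 bp and 14.9 CPM per region. The share of members in the top 10% in every library was 0.849%. It was 0.283% in technical replicate 1 alone, 2.54% for members of over 400 bp and 0.0953% without the 1% of highest members. Per region it was 45.6%, in a ranking that favours wide regions and has no share over all regions beside it. Without members beside snRNA genes (an alternative chosen after seeing the data) it was 0.380%, and without each library 0.943 to 1.79%. Members called between technical replicates were 3, and 1 with plain totals, 1 without the replicate block, and 0 to 1 without each library; DESeq2 called 3. The call between libraries was lost (0) without the technical replicate term, and leaving out each library gave 0 to 1. Genes of the 4 lists numbered 34, 21 counting only members inside the span, and 48 within 100 kb, chosen after seeing the data. Shallow technical replicates, 4 reads at the median member, limit what single members show.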
